A study of Rattus norvegicus with 6 samples.

Results

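Osteopontin (gene Spp1), lipocalin 2 (Lcn2) and ceruloplasmin (Cp) were followed in whole rat ovaries at birth, 4 days after birth, and after culture. These 3 genes were measured by 5 of the 8799 probe sets on the arrays: 1 for Spp1, 1 for Lcn2 and 3 for Cp, each annotated with that symbol alone. The array named 4737 genes in this way. The 3 genes were chosen with their intensities on these same arrays known, so their levels and the differences between groups are given as a description, with no test.

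RNA was hybridized to 6 short-oligonucleotide arrays in 3 groups of 2. The P0 group held ovaries of newborn female pups, the P4 group held ovaries of female pups at postnatal day 4, and the cultured group held ovaries removed at birth and kept for 7 days on floating filters. The culture medium contained albumin, insulin, transferrin and ascorbic acid, per the labels. About 20 ovaries were pooled for each array, and both pools of a group are described as independent. No label gives a treatment other than culture or a genotype, and the rat strain is not stated there. The design text of the series names progesterone, which no label assigns to either cultured array; both are therefore taken as replicates of 1 condition, as labelled.

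Osteopontin is a secreted, phosphorylated glycoprotein that binds integrins and CD44 and is made by bone cells, macrophages and many epithelia. Lipocalin 2 is a small secreted carrier that sequesters bacterial iron-binding siderophores and is stored in neutrophil granules. The protease Mmp9 was listed here as a partner of lipocalin 2, and their binding in the rat was not tested. Ceruloplasmin is a copper-carrying ferroxidase that oxidizes iron as it leaves cells and is loaded onto transferrin. Lipocalin 2 and ceruloplasmin are both acute phase proteins, whose synthesis rises in inflammation.

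All 6 arrays had been brought to the same average brightness before deposit. Over probe sets on the log2 scale, the pair of arrays within a group correlated at 0.972 to 0.978. The GAPDH 3′ control read 1324 on P0 replicate 1 and between 2162 and 2775 on the other arrays. RNA integrity, read as the beta-actin control signal near the 3′ end over that near the 5′ end, was similar throughout (1.75 to 2.23). In whole ovaries, a change in the number of cells of a type cannot be told apart from a change in RNA per cell. Zp2, a component of the oocyte coat that marks the tissue as ovary, read 282 and 338 at P0, 1782 and 1466 at P4, and 1374 and 1310 after culture. Not every ovarian gene kept its P4 level: the inhibin gene Inha read 238 and 395, 1970 and 1349, and 361 and 462.

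Spp1 was low in both uncultured groups and high after culture. Its probe set, M14656_at, read 34.8 and 27.3 on the P0 arrays, 28.1 and 35.4 on the P4 arrays, and 1482 and 904 on the cultured arrays. The P0 and P4 readings overlapped, and both cultured arrays lay far above them: the lower cultured reading was 26.0 times the highest P0 reading. Group means were 31.1 ± 5.30 at P0, 31.8 ± 5.16 at P4 and 1193 ± 409 after culture (SD, n = 2). The mean intensity after culture was 38.4 times that at P0 and 37.6 times that at P4. On the scale of log2(intensity + 7.7), where the added constant damps changes of dim probe sets, the difference was 4.92 from P0 and 4.89 from P4 (SE 0.28 for each). Between P4 and P0 it was 0.03 (SE 0.28), smaller than its standard error. In order of level, cultured ovaries stood above P4 and P0, and those neighbours did not differ beyond their spread. The 250 bases before the annotated Spp1 start are shown as a description, and shared regulation of the 3 genes was not tested. Capitals mark matches to the motifs searched (RefSeq, GRCr8, chr14:5619805-5620054, minus strand, 5′ to 3′).
Spp1: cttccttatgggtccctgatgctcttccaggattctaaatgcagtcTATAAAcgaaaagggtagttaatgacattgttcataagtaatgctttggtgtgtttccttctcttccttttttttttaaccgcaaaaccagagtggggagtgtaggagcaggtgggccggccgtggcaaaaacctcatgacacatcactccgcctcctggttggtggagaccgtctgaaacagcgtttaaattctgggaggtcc

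**Figure D1:**
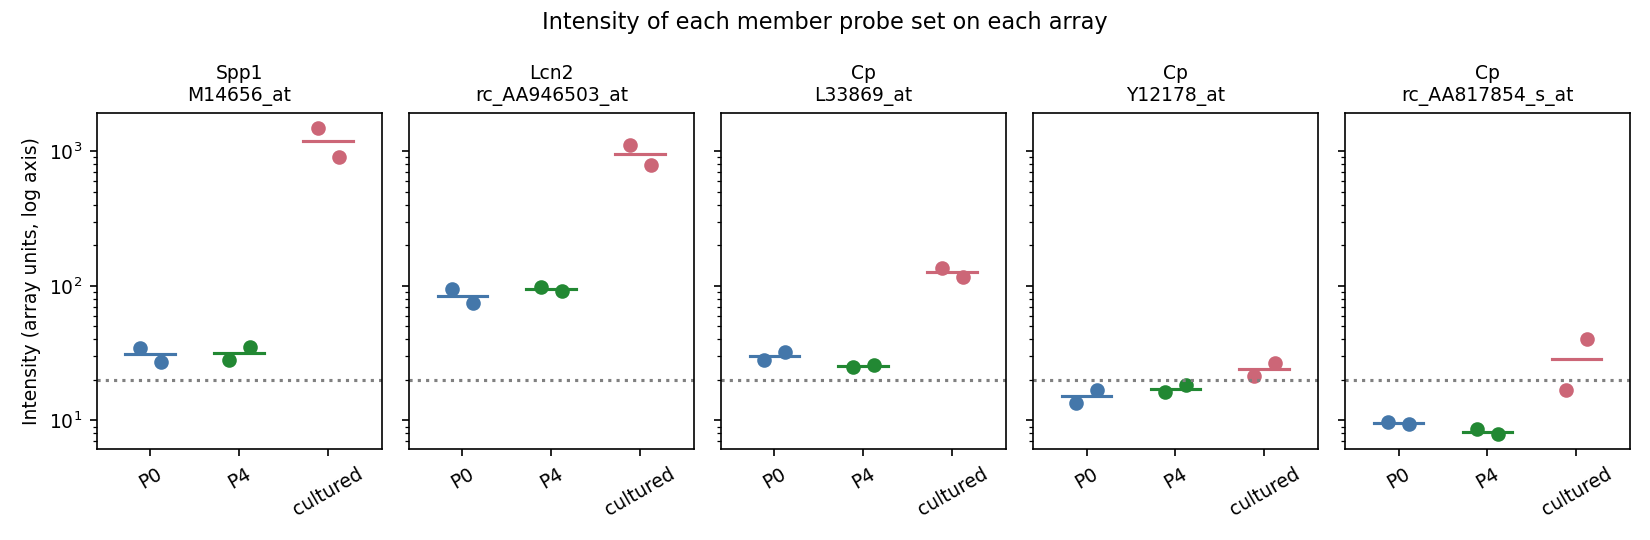
Intensity (array units, log axis) of the 5 probe sets of Spp1, Lcn2 and Cp on each of the 6 arrays; points are arrays, solid lines are group means of 2 arrays, and the dotted line marks 20, the highest reading of control probes for transcripts that were not added. The cultured points of Spp1, Lcn2 and L33869_at of Cp lie above all P0 and P4 points, while the other Cp probe sets sit near or under the dotted line at P0 and P4.

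Lcn2 had the same shape with a smaller step. Its probe set, rc_AA946503_at, read 94.0 and 74.1 at P0, 97.4 and 92.0 at P4, and 1108 and 795 after culture. The P0 and P4 readings overlapped, and the lower cultured reading was 8.46 times the highest P0 reading and 8.16 times the highest P4 reading. Group means were 84.1 ± 14.1 at P0, 94.7 ± 3.82 at P4 and 952 ± 221 after culture (SD, n = 2). The mean after culture was 11.3 times that at P0 and 10.1 times that at P4, with log2 differences of 3.38 and 3.21 (SE 0.24 for each). The difference between P4 and P0 was 0.17 on the log2 scale (SE 0.24), so those neighbouring levels did not differ beyond their spread. The Lcn2 promoter window is given in the same form (RefSeq, GRCr8, chr3:36081781-36082030, minus strand).
Lcn2: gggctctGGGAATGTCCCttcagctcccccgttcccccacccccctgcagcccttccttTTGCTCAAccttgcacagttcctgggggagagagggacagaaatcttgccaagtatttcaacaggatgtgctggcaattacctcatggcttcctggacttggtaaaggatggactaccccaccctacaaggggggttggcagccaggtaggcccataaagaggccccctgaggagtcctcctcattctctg

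Cp was measured by 3 probe sets, which were all higher after culture but by different amounts. L33869_at read 28.1 and 32.4 at P0, 25.1 and 26.0 at P4, and 137 and 116 after culture. Both cultured arrays were above all others, and both P4 arrays were slightly below both P0 arrays. Group means were 30.3 ± 3.04, 25.6 ± 0.636 and 126 ± 14.7 (SD, n = 2). The mean after culture was 4.18 times that at P0 and 4.95 times that at P4, with log2 differences of 1.82 and 2.01 (SE 0.23 for each). The log2 difference between P4 and P0 was -0.19 (SE 0.23); groups without overlap were common there, at 44.2% of the 6118 probe sets tested.

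The other Cp probe sets were dim. Y12178_at read 13.5 and 16.7 at P0, 16.2 and 18.3 at P4, and 21.5 and 26.7 after culture. Its P0 and P4 readings overlapped, all 4 of them lay under 20, and the cultured readings lay just above it. The level of 20 is the highest reading on any array of 23 control probe sets whose transcripts were not added, so readings under it give only a bound. With those readings set to 20, Y12178_at was at least 1.20-fold higher after culture than at P0 or P4, and its log2 differences were 0.48 and 0.35 (SE 0.30 for each). The probe set rc_AA817854_s_at, whose suffix marks probes that can match more than 1 transcript, read 9.8 and 9.4 at P0, 8.6 and 7.9 at P4, and 16.9 and 40.6 after culture. Cultured replicate 1 was itself under 20 and only replicate 2 was above it, so no fold is given. This probe set fell under the filter on dim probe sets, so 4 of the 5 probe sets were among the 6118 tested. Its log2 differences of 0.99 from P0 and 1.11 from P4 (SE 0.34 for each) come from a fit without that filter. The Cp promoter window, from the start site the table uses, reads as follows (RefSeq, GRCr8, chr2:104368420-104368669, plus strand).
Cp: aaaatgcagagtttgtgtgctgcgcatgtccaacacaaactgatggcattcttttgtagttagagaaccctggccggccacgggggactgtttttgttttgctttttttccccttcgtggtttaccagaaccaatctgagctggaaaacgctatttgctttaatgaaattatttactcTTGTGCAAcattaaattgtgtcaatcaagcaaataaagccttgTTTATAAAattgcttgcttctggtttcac

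The promoter windows were searched on both strands for 7 letter patterns named after the factors that bind them. In the Lcn2 window, the looser of 2 NF-kappaB patterns matched on both strands in overlapping positions, as GGGAATGTCC from 243 to 234 and GGAATGTCCC from 242 to 233 bases before the start. That pattern occurred in 16.4% of 33469 rat promoter windows of the same length. The C/EBP pattern TTGCNNAA, present in 9.22% of windows, matched in Lcn2 as TTGCTCAA 191 to 184 bases before the start. It matched in Cp on the opposite strand, as TTGTGCAA 72 to 65 bases before the start. The TATA box letters TATAAA, in 12.9% of windows, lay 204 to 199 bases before the start in Spp1. In Cp they lay 27 to 22 bases before the start, overlapping a match on the opposite strand. None of the 3 windows held the other patterns: the STAT pattern TTCNNNGAA (in 7.67% of windows), the stricter NF-kappaB pattern (1.3%), the AP-1 pattern TGANTCA (6.34%) or the hypoxia response core ACGTG (16.6%). The windows differed in base composition, with 46.8% G and C in Spp1, 57.2% in Lcn2 and 39.6% in Cp, against a median of 51.2% over all windows. These matches are letters only.

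The step from P0 to the cultured state differed in size among the 3 genes. Taking L33869_at for Cp, the log2 difference of Spp1 was 1.54 above that of Lcn2 and 3.10 above that of Cp, and that of Lcn2 was 1.56 above that of Cp. In order of log2 difference between cultured and P0 ovaries, Spp1 stood in place 5, Lcn2 in place 17 and Cp in place 75 among the 6118 tested probe sets. Against P4, the places were 3, 16 and 59. All 5 probe sets had higher readings on both cultured arrays than on either P0 array, as did 21.3% of all tested probe sets. Against P4 the same held for all 5, beside 19.1%. The comparisons with P0 and with P4 share the cultured arrays, so they are not separate evidence. The cultured arrays also differed from each other: replicate 1 read 1.64 times replicate 2 for Spp1, 1.39 times for Lcn2 and 1.18 times for L33869_at. For the dim Cp probe sets the order was turned, at 0.805 for Y12178_at and 0.416 for rc_AA817854_s_at. Leaving out either cultured array kept the log2 difference from P0 between 4.56 and 5.27 for Spp1, 3.14 and 3.61 for Lcn2, and 1.71 and 1.93 for L33869_at.

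**Figure D2:**
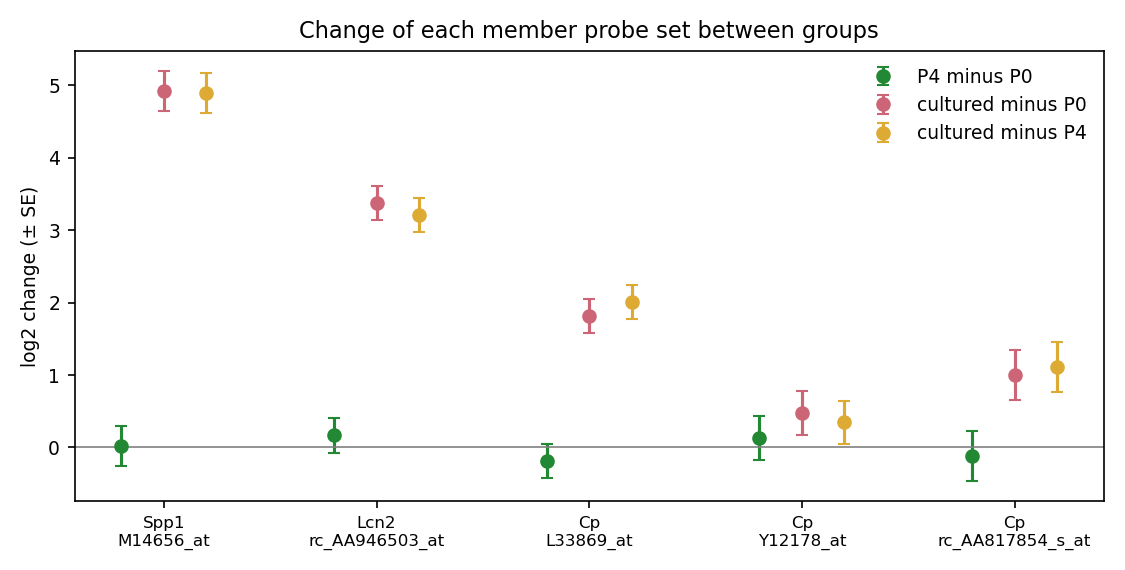
Difference in mean log2(intensity + 7.7) between groups for each probe set of Spp1, Lcn2 and Cp, with bars of 1 SE from the linear model; n = 2 arrays a group. Points of P4 minus P0 lie near 0 for all 5 probe sets (-0.19 to 0.17), and the differences from culture run from 4.92 for Spp1 against P0 to 0.35 for Y12178_at of Cp against P4.

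P0 and P4 arrays with the same replicate number carry chip identifiers with the same ending, and were compared within each such pair too. In the first pair the P4 minus P0 differences on the log2 scale were -0.25 for Spp1, 0.05 for Lcn2 and -0.13 for L33869_at of Cp. In the second pair they were 0.30, 0.29 and -0.25. The Spp1 differences thus had opposite signs in the pairs. Each cultured array has a chip identifier of its own, so culture and chip set cannot be told apart. Cultured ovaries were also 7 days past birth, and no uncultured ovary of that age was measured. Culture and elapsed age therefore cannot be told apart either, and wording such as "rose in culture" compares the groups only.

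The probe sets of other genes with profiles most like the members' were found by the root mean square difference over the 6 arrays of log2 values relative to the P0 mean. Nearest to Spp1 were both probe sets of C3, the central complement component, at 0.22 and 0.27, and Cuzd1, which encodes a protein with CUB and zona pellucida-like domains, at 0.23. The matrix proteases Mmp7 and Mmp12 followed at 0.61 and 0.69. Cuzd1 averaged 27.9 at P0, 22.9 at P4 and 1263 after culture. Nearest to Lcn2 were the 2 probe sets of the monocyte chemokine Ccl2 (0.17 and 0.29), the galectin Lgals3 (0.22), the Fc receptor Fcgr2b (0.38) and Mmp12 (0.39). Lgals3 averaged 70.0, 69.7 and 736. Nearest to L33869_at of Cp was B2m, the shared light chain of MHC class I, at 0.11, with means of 487, 474 and 1694. Plaur, the urokinase receptor, Lgals3bp, which encodes a galectin-binding protein, the phosphatase Ptpro and the chemokine Cxcl6 lay between 0.22 and 0.25. Pearson correlations of these probe sets with the member they resemble ran from 0.983 to 0.998 over 6 arrays, which form only 3 groups. C3, Mmp12, Fcgr2b, Plaur and Ptpro read under 20 on all 4 uncultured arrays, and Mmp7 on 3 of them, so their distances and order depend on the 7.7 added before the log. The members correlated with each other at 0.985 to 0.998 but were further apart in size, at distances of 0.90 between Spp1 and Lcn2, 0.94 between Lcn2 and Cp, and 1.80 between Spp1 and Cp. Lcn2 stood in place 12 and Cp in place 44 from Spp1, whereas from Cp, Lcn2 stood in place 897 and Spp1 in place 4952.

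Genes that act with the members were taken from 5 lists chosen for their known function, but with earlier results of these data known. They were tested in a linear model over all 6118 probe sets, and the adjusted p values do not allow for that choice. Of 64 genes measured above the filter, 6 rose and 2 fell in cultured against P0 ovaries, and 7 rose and 2 fell against P4 (limma, Benjamini-Hochberg adjusted p under 0.05). Over all 3635 named genes, 3.71% rose and 1.57% fell against P0, and 2.34% rose and 0.715% fell against P4. C3, Mmp9 and Mmp3 reached the filter only through the cultured arrays, so a gene kept this way had to be higher there. Among the 61 list genes that would pass on the P0 and P4 arrays alone, counted after the values were seen, 4 rose and 2 fell against P0 and 5 rose and 2 fell against P4. The same limit left 3574 named genes, of which 3.27% rose and 1.59% fell against P0, and 1.9% rose and 0.727% fell against P4. Socs2 and Socs3, which fell, reached the filter only through the uncultured arrays. Between P4 and P0 none of the 64 passed in limma, beside 1.16% of all genes; at an unadjusted p under 0.05, 2 were higher and 7 lower, beside 6.99% higher and 5.8% lower of all genes. In a limma fit of the 4 P0 and P4 arrays alone, with the chip pair as a block, 4 of the 64 passed. That share was near the 5.58% of all genes. Irf1 was higher and A2m, Ptgds and Rbp4 were lower at P4 (adjusted p = 0.0441, 0.0074, 0.00925 and 0.00856). In the limma fit of all 6 arrays, these genes had adjusted p = 0.516, 0.0583, 0.105 and 0.167. The 3 other A2m probe sets had log2 changes of -0.42 to 0.39 there, and none passed.

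Among 14 osteopontin receptors and partners, 2 rose in culture and 12 did not pass, in each comparison. Over all genes, 3.71% rose against P0 and 2.34% against P4. The median log2 change from P0 was 0.01, beside -0.05 over all genes. The risers were matrix proteases, Mmp7, which cleaves osteopontin, and Mmp9, kept by the filter through its cultured readings alone. Mmp7 read 19.8 and 22.1 at P0, 12.6 and 13.1 at P4, and 536 and 389 after culture. Both cultured readings lay far above the rest. Mmp7 was at least 21.7-fold higher than at P0 (adjusted p = 2.09e-05) and at least 22.8-fold higher than at P4 (adjusted p = 9.94e-06). The osteopontin receptor Cd44 read 42.3 and 38.8, 26.0 and 33.4, and 78.6 and 57.9. Its cultured arrays were the highest, but its log2 changes of 0.64 from P0 and 1.02 from P4 did not pass (adjusted p = 0.192 and 0.0795). The integrin chain Itgb3 had a log2 change of -0.69 from P0 (adjusted p = 0.224), and Fn1, which encodes the matrix protein fibronectin, one of -0.20 (adjusted p = 0.68). Itgav, the partner chain of Itgb3 in the main osteopontin receptor, was under the filter.

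Of 7 genes of the lipocalin family, its receptors and partners, Mmp9 rose in culture and 6 did not pass, with a median log2 change from P0 of -0.01. Over all genes, 3.71% rose against P0 and 2.34% against P4. Mmp9 read 5.1 and 4.2 at P0, 8.2 and 7.2 at P4, and 76.9 and 48.5 after culture. All uncultured readings were under the control level of 20, so it was at least 3.05-fold higher after culture than in either group (adjusted p = 0.00364 from P0 and 0.00721 from P4). Mmp9 reached the filter only through the cultured arrays, so the direction of its test was set beforehand. Without cultured replicate 1 its call against P4 ended (adjusted p = 0.0872). Lrp2, which encodes the endocytic receptor megalin that takes up lipocalin 2, read 66.6 and 60.3 at P0, 38.2 and 33.2 at P4, and 39.2 and 37.9 after culture. Its P0 arrays were the highest, with a log2 change of -0.62 after culture (adjusted p = 0.165). The lipocalins Rbp4, a retinol carrier, and Ptgds, a prostaglandin D synthase, had log2 changes from P0 of -0.01 and -0.94 (adjusted p = 0.994 and 0.118).

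**Figure D3:**
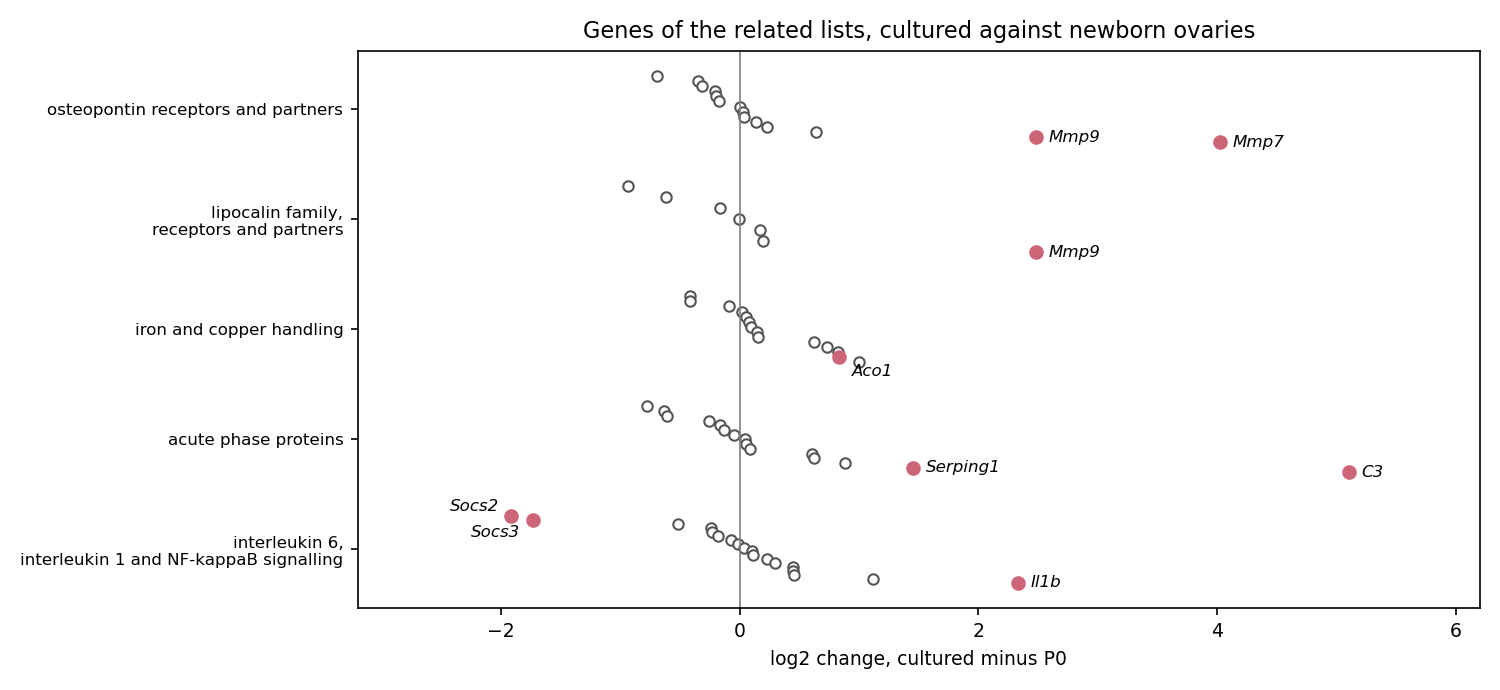
log2 change between cultured and P0 ovaries of the genes measured in each of 5 lists, 1 point a gene on its brightest probe set; filled, named points passed at an adjusted p under 0.05 in limma and open points did not. Most genes lie near 0, while Mmp7 (4.02), C3 (5.10), Mmp9 (2.48) and Il1b (2.34) stand to the right and Socs2 and Socs3 to the left.

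Iron and copper handling, the setting of ceruloplasmin, showed 1 riser of 14 measured genes in each comparison with culture, and the remaining 13 did not pass. Over all genes, 3.71% rose against P0 and 2.34% against P4. Aco1, an aconitase that doubles as an iron sensor, read 130 and 122 at P0, 204 and 206 at P4, and 247 and 215 after culture. It rose by 0.84 on the log2 scale against P0 (adjusted p = 0.0451), a call that ended whichever array was left out (adjusted p up to 0.197). Hmox1, heme oxygenase 1, which releases iron from heme, read 111 and 152, 64.8 and 105, and 291 and 189. It rose by 1.43 against P4 (adjusted p = 0.0365), but not without P4 replicate 1 or either cultured array (highest adjusted p = 0.251). Tfrc, the transferrin receptor, had a log2 change of 0.99 from P0 (adjusted p = 0.0852), from readings of 46.7 and 41.8 to 70.8 and 129. The metallothionein Mt3 and the extracellular superoxide dismutase Sod3 had log2 changes of -0.09 and 0.73 (adjusted p = 0.853 and 0.141). The copper pumps Atp7a and Atp7b were under the filter. The median log2 change from P0 was 0.12.

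Of 15 acute phase protein genes, 2 rose against P0 and 3 against P4, beside 3.71% and 2.34% of all genes. The others did not pass, and the median log2 changes were 0.05 and 0.20. C3 read 3.7 and 3.8 at P0, 4.1 and 2.3 at P4, and 616 and 241 after culture. Its cultured readings were far above the control level and all others far below it, so it was at least 19.3-fold higher than in either group (adjusted p = 0.000138 and 0.000121). C3 reached the filter only through the cultured arrays, so the direction of its test was set beforehand. Serping1, the C1 inhibitor, read 114 and 147, 99.1 and 132, and 531 and 254, and rose by 1.46 against P0 and 1.62 against P4 (adjusted p = 0.0361 and 0.0318). Its call against P0 ended without P0 replicate 1, P0 replicate 2 or cultured replicate 1, and that against P4 without P4 replicate 1 or cultured replicate 1 (highest adjusted p = 0.18 and 0.174). A2m, the broad protease inhibitor alpha-2-macroglobulin, read 204 and 191, 28.6 and 82.2, and 450 and 304. It rose by 2.73 against P4 (adjusted p = 0.00465), not without cultured replicate 1 (adjusted p = 0.0855), and its 3 other probe sets had log2 changes of -0.17 to 0.54. The liver carriers Hpx and Ttr had log2 changes from P0 of 0.62 and -0.78 (adjusted p = 0.274 and 0.166), and the elastase inhibitor Serpina1 one of 0.61 (adjusted p = 0.215).

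Among 18 genes of interleukin 6, interleukin 1 and NF-kappaB signalling, 1 rose, 2 fell and 15 did not pass, against P0 and against P4 alike. Over all genes, 3.71% rose and 1.57% fell against P0, and 2.34% rose and 0.715% fell against P4. Il1b, the cytokine interleukin 1 beta, read 27.0 and 19.9 at P0, 19.2 and 21.1 at P4, and 187 and 118 after culture. Both cultured readings were above all others. Their geometric mean was at least 6.38-fold that of P0 and at least 7.22-fold that of P4 (adjusted p = 0.002 and 0.00151). Socs3, a feedback inhibitor of interleukin 6 receptor signalling, read 33.8 and 45.7, 30.4 and 28.7, and 7.6 and 5.4. It was at least 1.97-fold lower after culture than at P0 (adjusted p = 0.0113) and at least 1.48-fold lower than at P4 (adjusted p = 0.037). Socs2, an inhibitor of growth hormone receptor signalling, was at least 3.50-fold lower than at P0 and at least 3.93-fold lower than at P4 (adjusted p = 0.0133 and 0.0108). Socs2 and Socs3 reached the filter only through the uncultured arrays, so the direction of their tests was set beforehand. The calls of Socs2 ended without either cultured array, and without P0 replicate 2 or P4 replicate 2 in turn (highest adjusted p = 0.102 and 0.112). Those of Socs3 ended against P0 without P0 replicate 2 or cultured replicate 2, and against P4 whichever array was left out (adjusted p up to 0.0851 and 0.193). Il1a, the related interleukin 1 alpha, and the transcription factor Irf1 had log2 changes from P0 of 0.11 and 1.12 (adjusted p = 0.884 and 0.162), and the kinase Jak2 one of -0.52 (adjusted p = 0.241). The cytokine genes Il6 and Tnf were under the filter.

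Markers of cells known to make the members were read on the same arrays. The macrophage and leukocyte list had 14 of its 24 genes on the array, and their summed intensity was 664 and 806 at P0, 440 and 522 at P4, and 4395 and 2184 after culture. Of the 12 above the filter, 7 rose against P0 and 5 did not pass, among them Lyz2, the macrophage lysozyme (111 and 141 at P0, 2267 and 956 after culture), and Aif1 (32.2 and 34.2, then 300 and 114). Over all genes, 3.71% rose against P0. Fcgr2b, on this list, read 6.4 to 10.4 on the uncultured arrays, lower than Mmp3, so it too reached the filter only through culture. How many others of this list did so was not counted. The leukocyte antigen Ptprc read 34.2 and 23.2 at P0 and 38.6 and 22.8 after culture. C1qc read 138.3 and 163.8 at P0 and 159.6 and 151.5 after culture, and Csf1r and Itgam were under the filter. Lyz2 was the largest part of the cultured sums on both arrays. The marker sum was 2.01 times as high on cultured replicate 1 as on replicate 2, the array on which Spp1, Lcn2 and L33869_at were also lower; the dim Cp probe sets Y12178_at and rc_AA817854_s_at were higher there. The part of these cells in the levels of Spp1, Lcn2 and Cp was not tested.

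Neutrophil markers, of which 5 of 13 were on the array, summed to between 30.3 and 80.2 at P0 and P4 and to 39.3 and 35.9 after culture, and S100a8 and Mmp8 were under 20 on all 6 arrays. Hepatocyte markers, 12 of 12 on the array, summed to 268 and 398 after culture, within or below the 343 to 426 at P0 and P4, and albumin (Alb) read 13.4 and 18.3. The bone markers, 6 of 8 on the array, summed to 809 and 924 after culture and to between 690 and 968 at P0 and P4, with Ibsp under 20 throughout. Kidney tubule and mesonephros markers, 8 of 9, summed to 356 and 448 after culture and to between 305 and 365 elsewhere. The androgen-regulated kidney gene Kap made up that excess, at 0.9 to 1.6 uncultured and 66.4 and 103 after culture; without it the sums were 289 and 345 after culture and 303 to 364 elsewhere. The epithelial list, 10 of 15, summed to 2329 and 2272 after culture and to between 1422 and 2519 elsewhere; 2 of its 9 tested genes rose against P0, Krt8 and Krt18, keratins of simple epithelia. The epithelial keratin Krt19 and the transcription factor gene Wt1 did not pass, with log2 changes from P0 of -0.95 and -1.28 (adjusted p = 0.0682 and 0.143). Krt19 read 1103 and 1131 at P0, 362 and 571 at P4, and 691 and 480 after culture. The erythroid list, 5 of 12, summed to 3985 and 4105 at P0, 2992 and 2254 at P4, and 204 and 184 after culture, and 2 of its 4 tested genes fell against P0. Culture stress genes, 16 of 19, summed to 4405 and 5982 after culture against 4087 to 4617 elsewhere, and 1 of 15 tested rose against P0, the heat shock gene Hsph1. It read 180 and 165 at P0, 386 and 307 at P4, and 359 and 409 after culture, and none of the 15 passed against P4 in limma. In the list of oocyte and granulosa genes, 17 of 19, 3 of 15 tested rose and 2 fell against P0, and 0 rose and 3 fell against P4. Over all genes, 3.71% rose and 1.57% fell against P0, and 2.34% rose and 0.715% fell against P4.

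**Figure D4:**
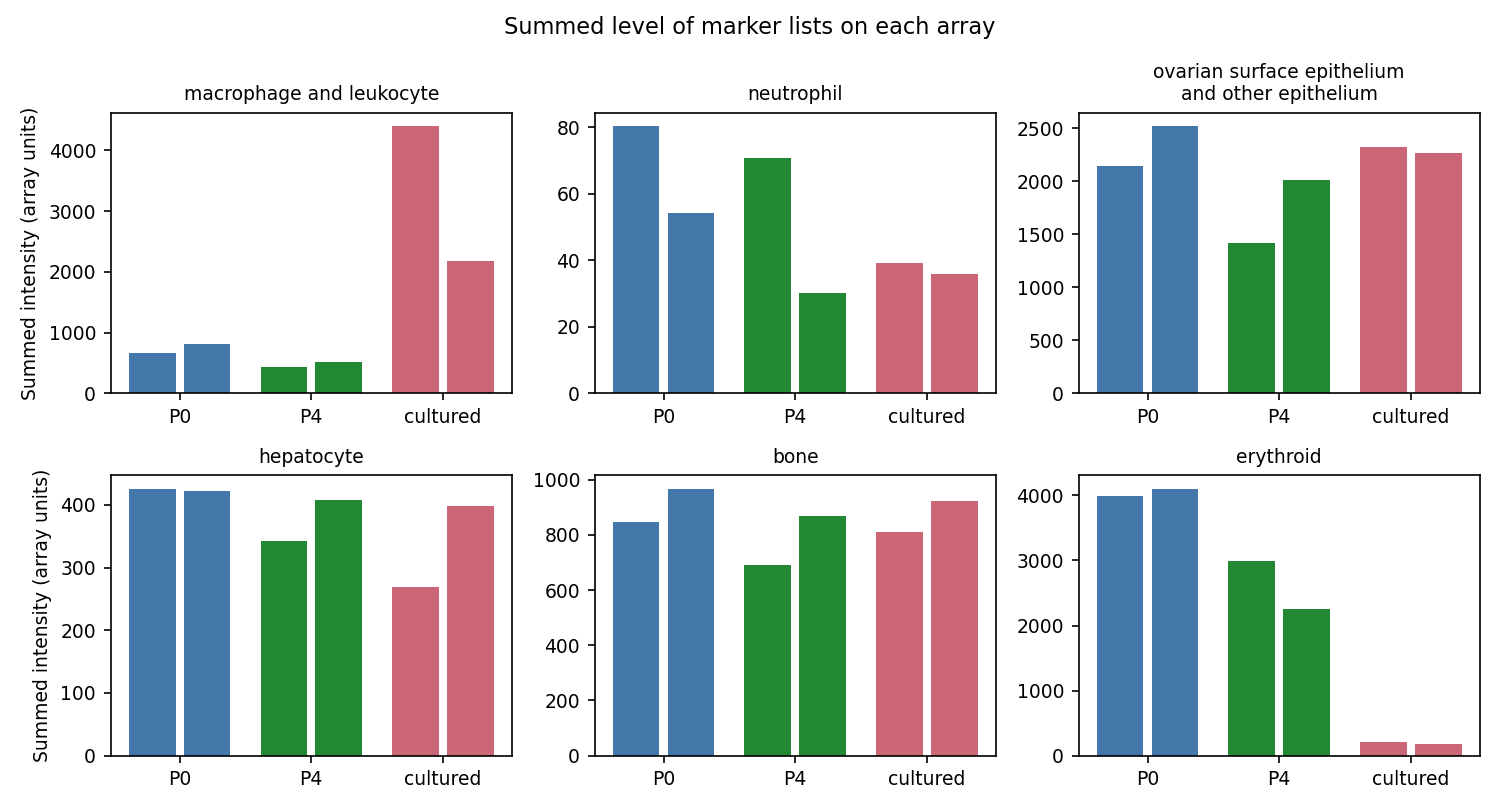
Summed intensity (array units, axes from 0) of 6 marker lists on each array, 2 bars a group for replicates 1 and 2 from left to right, each list on its own axis. The macrophage and leukocyte sum reaches 4395 and 2184 on the cultured arrays against at most 806 elsewhere, and the erythroid sum is 204 and 184 there against at least 2254 elsewhere. Lyz2 is the largest part of the cultured macrophage and leukocyte sums, and Hbb makes up most of the uncultured erythroid sums.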

How the data were processed

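Pooled ovaries were extracted with Trizol and the RNA was labelled with biotin, per the labels' protocols. The deposited values are linear probe set intensities that the authors had scaled: the mean after trimming 2% at each end was 125.2 on every array. The summarization software is not given in the sources used here, and no detection calls were used. No further normalization was applied.

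To each value 7.7 was added (the 20th percentile over the table) before log2 was taken. After 59 control probe sets and 2622 with a mean below the 30th percentile were left out, 6118 were tested in 1 model with 3 group means (limma 3.58.1 in R 4.3.3, trended variances, two-sided, Benjamini-Hochberg over all 6118). With 2 arrays a group an exact permutation test cannot go below p = 0.333. The number of arrays limits the precision; the median SE of a log2 change was 0.259.

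Symbols came from the platform annotation: 7018 probe sets had 1, 308 several and 1473 none, and 6994 matched a RefSeq table (GRCr8) by gene number. List genes use the tested probe set of highest mean. Folds written "at least" compare geometric means of the groups, with arrays of the dimmer group under 20 set to 20, a limit set once the values were known. Members and lists were chosen with earlier results of these data known. Named genes were the members, the 5 nearest probe sets to each, up to 6 called genes a list and up to 3 not called, by smallest p; a few markers were added after their values were seen. Chip identifiers pair P0 and P4 arrays of 1 number (correlation of deviations 0.33). Alternatives were other pseudocounts, filters, quantile normalization, no variance trend, chip set blocks and leaving out each array.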

Additional observations from a re-analysis of the deposited data

How the results depend on the processing

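For Spp1, Lcn2 and the brightest Cp probe set, no setting tried turned the direction of the difference between cultured and uncultured ovaries. Because all their cultured readings lay above all their uncultured ones, another pseudocount or leaving out 1 array could not turn it. The genes were also chosen with these values known. A pseudocount at the median of all values, 40, gave Spp1 log2 differences of 4.08 from P0 and 4.06 from P4, Lcn2 2.985 and 2.86, and Cp 1.24 and 1.34; a pseudocount of 1 gave Cp 2.03 and 2.26. Without 1 array each, differences from P0 ran from 4.563 to 5.272 for Spp1, 3.138 to 3.613 for Lcn2 and 1.707 to 1.931 for Cp; from P4, from 4.537 to 5.245, 2.971 to 3.446 and 1.896 to 2.12. Between P4 and P0 they ran from -0.114 to 0.166, 0.009 to 0.324 and -0.27 to -0.107. The count of probe sets called between P4 and P0, 66, was 23 without a filter, 29 without a variance trend, 335 with the chip set as a random block and 314 with the replicate block of paired chip sets, and 15 to 55 without 1 array. The counts for culture against P0 (332) and P4 (170) ran from 90 to 353 and from 86 to 193. Of the 64 list genes, 8 passed against P0 (4 to 7 without 1 array), 9 against P4 (3 to 8) and 0 between P4 and P0 (0 to 1, or 4 with the replicate block). Leaving out an array leaves its group with 1, assumed to vary like the others. The causes were not tested. Readings under 20 limit what the dim Cp probe sets can show.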
